A study of Mus musculus with 6 samples.

Results

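The transcription factor p53 and 9 of its best-known target genes were examined in cultured mouse microglia that did or did not carry an inducible Cre recombinase. The 10 genes were picked by name, as a readout of the DNA damage that Cre can cause, and were found by symbol among the 55487 genes of the count tables. They are Trp53, which encodes p53 itself, Mdm2, Cdkn1a, Ccng1, Plk2, Gadd45a, Bax, Bbc3, Pmaip1 and Trp53inp1. All 10 passed the filter on low counts and were tested. Pmaip1, Plk2 and Mdm2 were higher in Cre+ than in Cre- cultures, by 1.40-fold, 1.24-fold and 1.15-fold. Cdkn1a, Trp53 and Trp53inp1 had group means within 2% of each other. Bbc3 and Bax had lower means in Cre+ cultures, and these differences did not pass the test.

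p53 is held at a low level by MDM2, a ubiquitin ligase that marks it for degradation. DNA breaks activate the kinases ATM and ATR, p53 is then stabilised, and it binds DNA as a tetramer at paired half-sites near its target genes. Its targets stop the cell cycle (Cdkn1a, Gadd45a), start apoptosis through mitochondria (Bax, Bbc3, Pmaip1) or feed back on p53 (Mdm2, Ccng1). Cre cuts DNA at loxP sites, and at high activity it can also cut genomic sequences that resemble loxP, which is known to activate p53 in some dividing cells.

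The 6 libraries came from cultures of primary cortical microglia from P1 to P3 pups of the line CAG::CreERT2; Nr1d1 fl/fl, 3 Cre- and 3 Cre+, with 1 library per culture. Both groups carry the floxed Nr1d1 alleles, and both were given 4-hydroxytamoxifen (4-OHT), the ligand that moves CreERT2 into the nucleus, at 1.5 μM for 2 days, so Cre is the only labelled difference between them. The exposure is that of the labels, and the paper's results give the same time for this RNA-seq experiment. Its general culture methods give a shorter one for cultures of this line. Nr1d1 encodes the circadian repressor REV-ERBα. The CAG promoter is active in nearly all cell types, so Cre is not restricted to microglia in this line, and a group with Cre but without floxed alleles was not analysed here. Cre activity and loss of Nr1d1 therefore cannot be told apart in any value below. The labels do not say whether cultures shared a litter, so p-values measure the spread between these cultures.

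Counts on genes summed to between 87545868 and 93942161 reads in the Cre- libraries and between 93701215 and 110909129 in the Cre+ libraries. The number of genes with at least 1 count was nonetheless lower in Cre+ libraries, at 29941 to 30677 against 32587 to 35166, and the part of this difference in the results was not tested. The targeted gene Nr1d1 was at 2.35, 1.20 and 1.64 CPM (counts relative to the library size after TMM normalization) in Cre- and at 1.00, 0.945 and 1.08 CPM in Cre+ libraries. Its log2 fold change was -0.77 (SE 0.25, adjusted p = 0.0945 by edgeR's quasi-likelihood test), so the groups did not overlap but the fall did not pass the threshold of 0.05. Of the 6 fits without 1 culture, only that without Cre- replicate 2 called Nr1d1 (-0.98, adjusted p = 0.0414), and the smallest estimate was -0.50, without Cre- replicate 1 (adjusted p = 0.313). These levels are near the filter of 1 CPM, and the counts cover all exons of Nr1d1. The paper shows deletion of only some of its exons, in microglia of a Cx3cr1::CreERT2 line. It also reports that most of the Nr1d1 transcript was lost in microglia of that line. Reads from the remaining exons would still be counted, so these values do not measure how complete the deletion was. The summed CPM of 10 microglial markers was 7125 to 7251 in Cre- and 7156 to 7362 in Cre+ libraries, and 1 of them, Itgam, was called higher (0.18, adjusted p = 0.0463). Single markers varied more than the sum, with log2 fold changes from -0.29 to 0.44 over the 9 tested. At an unadjusted p under 0.05 by edgeR's test, 2 were higher and 1 lower, where all genes gave 9.69% and 9.46%. P2ry12, a marker of resting microglia in the brain, had only 35 to 92 counts and was not tested. Endothelial markers summed to 20.2 to 22.4 CPM in Cre- and 24.0 to 27.5 CPM in Cre+ libraries, nearly all of it Flt1, which was called higher (0.33, adjusted p = 0.0245). The other tested endothelial marker, Kdr, had an estimate of -0.36 (adjusted p = 0.568), and the defining gene Cldn5 had at most 4 counts. The sums for neurons were 2.87 to 3.51 CPM in Cre- and 2.35 to 2.45 CPM in Cre+, and those for fibroblasts and mural cells were 1.79 to 2.81 and 0.958 to 1.22 CPM. Astrocyte markers summed to 12.3 to 13.9 and 11.1 to 14.7 CPM and oligodendrocyte lineage markers to 36.6 to 44.3 and 39.3 to 40.7 CPM, so these ranges overlapped. No marker was at 0 in all 6 libraries, and the part of other cell types in the results was not tested. In bulk samples, fewer cells of a type and less RNA per cell cannot be told apart.

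The promoters are shown because binding by p53 is what the target genes are known to share, although they were picked as known targets and not by their sequence. Trp53 was included as the gene of p53 itself. RefSeq windows on GRCm38.p6, each from 250 bases before to 50 bases after an annotated start, were given for 8 of the 10 genes, with no entry for Pmaip1 and Trp53inp1. Every window was searched for the 10-base p53 half-site, a consensus that reads the same on both strands. Only exact matches to the consensus were counted, so a half-site with a mismatch stays in lower case. A half-site was found in the windows of 6 of the 8 genes, in 6 of their 11 windows, against 8.36% of 32851 windows of all genes. A second list of 33 p53 targets had a half-site in 9 of 35 windows (25.7%). A match is only a run of letters and no measurement of binding. In the sequences printed here, all read 5′ to 3′ on the strand of the gene, capitals mark the half-site, and the flanks are 10 bases on each side.

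Gadd45a, chr6:67037428-67037457, minus strand: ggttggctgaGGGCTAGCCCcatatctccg

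Bax, chr7:45467080-45467109, minus strand: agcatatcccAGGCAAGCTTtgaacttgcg

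Ccng1, chr11:40755452-40755481, minus strand: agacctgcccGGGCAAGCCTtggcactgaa

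Trp53, chr11:69580274-69580303, plus strand: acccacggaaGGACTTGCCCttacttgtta

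The first base of the half-site lay 40 bases upstream of the RefSeq start in Gadd45a, 201 in Bax, 185 in Ccng1 and 75 in Trp53. Gadd45a as counted here reaches to 67037457 on the minus strand. Its half-site, at 67037438 to 67037447, therefore lies inside the counted gene, downstream of that end. The longer sequences of Mdm2 and Cdkn1a are the 250 bases before the start, given whole to show the half-sites of the feedback gene of p53 and of the only gene with a pair of them.

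Mdm2, chr10:117710759-117711008, minus strand: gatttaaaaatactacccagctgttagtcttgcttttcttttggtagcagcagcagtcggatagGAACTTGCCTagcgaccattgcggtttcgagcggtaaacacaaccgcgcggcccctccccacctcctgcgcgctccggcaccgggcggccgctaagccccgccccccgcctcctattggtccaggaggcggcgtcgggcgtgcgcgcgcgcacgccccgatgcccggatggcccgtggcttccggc

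Cdkn1a, chr17:29090729-29090978, plus strand: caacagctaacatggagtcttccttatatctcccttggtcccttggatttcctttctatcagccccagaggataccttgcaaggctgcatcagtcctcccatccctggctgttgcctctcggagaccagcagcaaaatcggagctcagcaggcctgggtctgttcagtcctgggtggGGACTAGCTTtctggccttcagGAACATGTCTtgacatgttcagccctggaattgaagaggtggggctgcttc

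Mdm2 had 1 match, 186 bases upstream. In Cdkn1a, the more upstream of 2 annotated starts had 2 matches, 73 and 51 bases upstream, spaced closely enough to count as a pair (a spacer of at most 13 bases). Such a pair was present in 24 of all 32851 windows (0.0731%), and among the 8 genes only in this window of Cdkn1a. Directly after its second match, the bases tgacatgttc differ from the consensus only at the first base and were not counted. None of the 3 windows of Bbc3 held a half-site, which says only that these letters are not in these windows. Plk2 had none either. After the values were seen, the windows were also searched for TGACGTCA, the palindromic cAMP response element, which was present in 1.79% of all windows and, among the 8 genes, only in Plk2, 62 bases upstream of its start. Capitals mark it in the 250 bases before the Plk2 start.

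Plk2, chr13:110394794-110395043, plus strand: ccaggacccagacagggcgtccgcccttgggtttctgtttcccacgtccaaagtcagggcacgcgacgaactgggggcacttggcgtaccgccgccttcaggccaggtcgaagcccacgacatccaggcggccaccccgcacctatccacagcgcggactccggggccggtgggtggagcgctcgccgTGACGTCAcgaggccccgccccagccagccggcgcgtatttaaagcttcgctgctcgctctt

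No difference in Trp53 mRNA was detected between the groups. Trp53 (ENSMUSG00000059552) lies on chromosome 11 from 69580359 to 69591873 on the plus strand of GRCm38. Its expression was 97.4, 102 and 97.8 CPM in Cre- replicates 1, 2 and 3, and 100.3, 99.9 and 94.9 CPM in Cre+ replicates 1, 2 and 3. The highest and the lowest of the 6 values were a Cre- and a Cre+ culture and the other values were interleaved. The means were 99.1 ± 2.65 CPM (SD, n = 3) and 98.4 ± 3.02 CPM (SD, n = 3), with a log2 fold change of -0.01 (95% interval -0.12 to 0.09, adjusted p = 0.942). p53 is regulated largely as a protein, which these libraries do not measure. A pseudogene, Trp53-ps, was 97.7% identical to the Trp53 transcript over 353 bases and had 54 to 113 counts per library, against 8472 to 10990 for Trp53.

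Mdm2, the ubiquitin ligase that closes the feedback loop on p53, was slightly higher in Cre+ cultures. It lies on chromosome 10 from 117688875 to 117710758 on the minus strand (ENSMUSG00000020184). Mdm2 was at 101, 109 and 99.1 CPM in Cre- replicates and at 119, 114 and 123 CPM in Cre+ replicates. Every Cre+ culture was above every Cre- culture, although the gap between Cre- replicate 2 and Cre+ replicate 2 was small. The means were 103 ± 5.37 and 119 ± 4.62 CPM (SD, n = 3 each), a log2 fold change of 0.20 (SE 0.05, 95% interval 0.09 to 0.32, adjusted p = 0.0393 by edgeR's quasi-likelihood test). The call is near the threshold: when 1 culture at a time was left out, it held only without Cre- replicate 2 (adjusted p = 0.0310), and in the other 5 fits the log2 fold change was 0.17 to 0.23 with an adjusted p of up to 0.155.

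Ccng1 encodes cyclin G1, which recruits a phosphatase to MDM2. Ccng1 (ENSMUSG00000020326, chromosome 11, 40748552 to 40755311, minus strand) was at 87.4, 79.7 and 79.2 CPM in Cre- and at 90.9, 92.6 and 82.6 CPM in Cre+ replicates. The groups overlapped, since Cre+ replicate 3 was below Cre- replicate 1. The log2 fold change of 0.11 (95% interval -0.01 to 0.24, adjusted p = 0.328) did not pass the test.

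**Figure D1:**
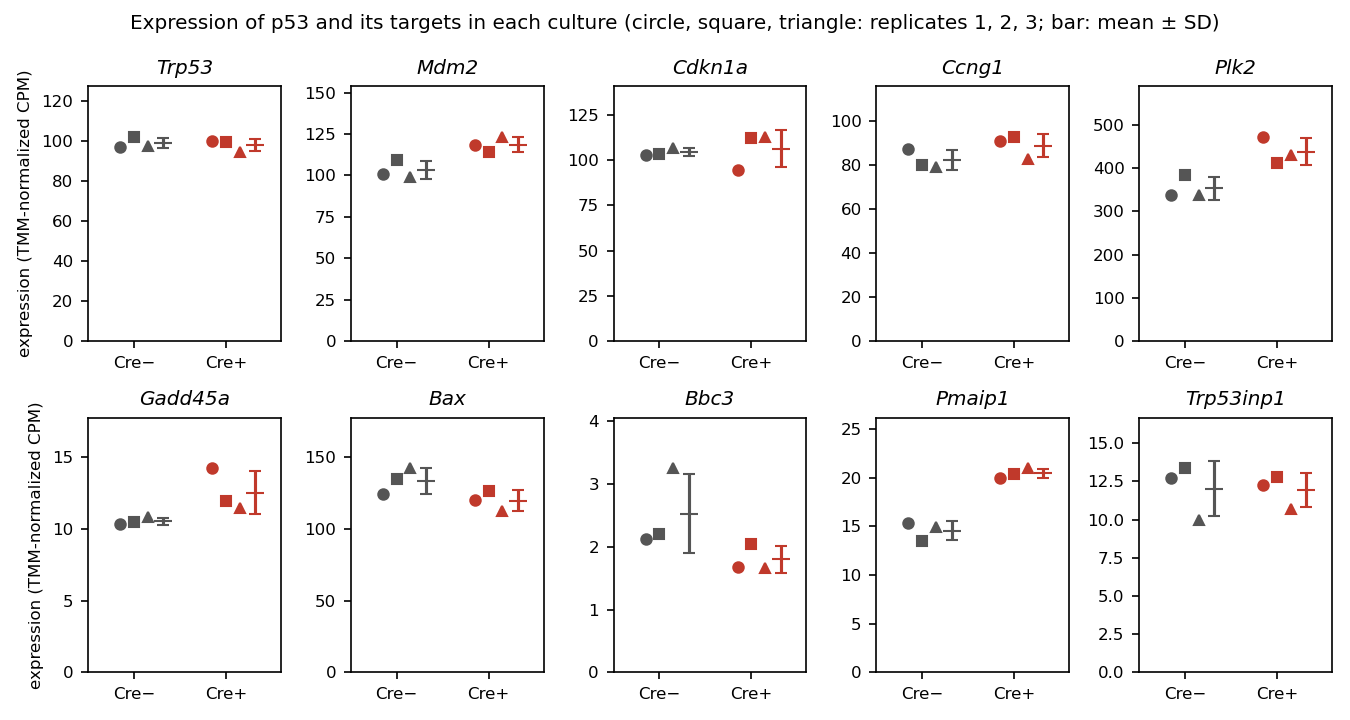
Expression of Trp53 and 9 p53 target genes in each of the 6 cultures, in TMM-normalized CPM on an axis that starts at 0 and has its own scale for each gene. Grey symbols are Cre- and red symbols Cre+ cultures (circle, square and triangle for replicates 1, 2 and 3), and bars give the mean ± SD of 3 cultures. The groups are apart for Mdm2, Plk2, Gadd45a and Pmaip1 (higher in Cre+) and Bbc3 (lower in Cre+), and they overlap for the other 5 genes.

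Among the genes that act on the cell cycle, Plk2 rose and no difference in Cdkn1a was detected. Cdkn1a (ENSMUSG00000023067, chromosome 17, 29090976 to 29100727, plus strand) encodes p21, an inhibitor of cyclin-dependent kinases and the usual first marker of p53 activity. Cdkn1a was at 103, 103 and 107 CPM in Cre- replicates and at 94.3, 112 and 113 CPM in Cre+ replicates. Cre+ replicate 1 was the lowest of the 6 cultures, and the other 2 Cre+ cultures were the highest. The means were 104 ± 2.11 and 106 ± 10.4 CPM (SD, n = 3 each), a log2 fold change of 0.03 with a 95% interval from -0.11 to 0.16 (adjusted p = 0.872). The estimate turned to -0.01 without Cre+ replicate 2 and to -0.02 without Cre+ replicate 3, and it was 0.11 without Cre+ replicate 1 (adjusted p = 0.344). An antisense gene, AC167363.2, shares 273 bases (7.68%) of the Cdkn1a exons and had 7 to 21 counts. The strand setting of the counting is not given in the sources used here, and without strand the reads of a gene and its antisense partner cannot be told apart.

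Plk2 encodes polo-like kinase 2, a stress-responsive kinase of the cell cycle and centrosome that is also an early-response gene in several cell types. Plk2 (ENSMUSG00000021701, chromosome 13, 110395046 to 110400844, plus strand) was at 338, 385 and 338 CPM in Cre- replicates and at 472, 412 and 431 CPM in Cre+ replicates. All Cre+ cultures were above all Cre- cultures. The means were 354 ± 26.9 and 438 ± 30.7 CPM (SD, n = 3 each), with a log2 fold change of 0.31 (SE 0.06, 95% interval 0.19 to 0.43, adjusted p = 0.00562). The call held in each of the 6 fits without 1 culture, at log2 fold changes of 0.25 to 0.37 and adjusted p of at most 0.0373. 

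Gadd45a, a small protein that binds PCNA and p21 and is induced by DNA damage and by other stresses, had a higher mean in Cre+ cultures that did not pass the test. Gadd45a (ENSMUSG00000036390, chromosome 6, 67035096 to 67037457, minus strand) was at 10.3, 10.5 and 10.8 CPM in Cre- and at 14.2, 11.9 and 11.4 CPM in Cre+ replicates. The groups were apart, and Cre+ replicate 1 was the highest by a wide gap. The log2 fold change was 0.25 (SE 0.11, 95% interval 0.02 to 0.48, adjusted p = 0.221), and 0.15 without that culture (adjusted p = 0.577). The antisense gene E230016M11Rik shares 337 bases (19.1%) of the Gadd45a exons and had 5 to 48 counts, against 899 to 1559 for Gadd45a.

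The 3 genes that start apoptosis through mitochondria did not move together: Pmaip1 rose, while Bbc3 and Bax had lower means in Cre+ cultures. Pmaip1 (ENSMUSG00000024521, chromosome 18, plus strand) encodes NOXA, a BH3-only protein that neutralises MCL1. Pmaip1 was at 15.3, 13.5 and 14.9 CPM in Cre- replicates and at 20.0, 20.4 and 20.9 CPM in Cre+ replicates. The lowest Cre+ culture was well above the highest Cre- culture, and the spread within each group was small. The means were 14.6 ± 0.962 and 20.4 ± 0.489 CPM (SD, n = 3 each), a log2 fold change of 0.49 (SE 0.08, 95% interval 0.31 to 0.67, adjusted p = 0.00301). The call held in each of the 6 fits without 1 culture, at log2 fold changes of 0.43 to 0.52 and adjusted p of at most 0.0213. Among the 11429 genes tested, Pmaip1 ranked 130th from the highest log2 fold change, Plk2 448th and Mdm2 1127th.

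Bbc3 encodes PUMA, the BH3-only protein that binds all anti-apoptotic BCL2 relatives. Bbc3 (ENSMUSG00000002083, chromosome 7, 16308393 to 16318205, plus strand) was the least expressed of the 10 genes, with 168 to 290 counts per library. It was at 2.13, 2.20 and 3.24 CPM in Cre- and at 1.68, 2.04 and 1.67 CPM in Cre+ replicates. Cre- replicate 3 was far above the other 5 cultures, and the groups were apart by a narrow gap. The log2 fold change was -0.49 (SE 0.21, 95% interval -0.95 to -0.03, adjusted p = 0.222), and -0.27 without Cre- replicate 3 (adjusted p = 0.594).

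Bax, which forms the pore in the outer mitochondrial membrane, was at 124, 135 and 142 CPM in Cre- and at 121, 127 and 112 CPM in Cre+ replicates (ENSMUSG00000003873, chromosome 7, 45461697 to 45466898, minus strand). The groups overlapped, since Cre+ replicate 2 was above Cre- replicate 1. The log2 fold change of -0.16 (SE 0.06, 95% interval -0.29 to -0.03, adjusted p = 0.144) did not pass the test. An overlapping gene on the same strand, Gm45808, shares 192 bases (12.2%) of the Bax exons and had 0 counts in every library, so no reads were assigned to it.

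Trp53inp1, a nuclear protein that binds p53 and also acts in autophagy, did not pass the test. Trp53inp1 (ENSMUSG00000028211, chromosome 4, 11156431 to 11174379, plus strand) was at 12.7, 13.3 and 9.98 CPM in Cre- and at 12.3, 12.8 and 10.7 CPM in Cre+ replicates. Replicate 3 was the lowest of each group, and the ranges overlapped over most of their width. The log2 fold change was -0.01 (95% interval -0.27 to 0.24, adjusted p = 0.973).

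**Figure D2:**
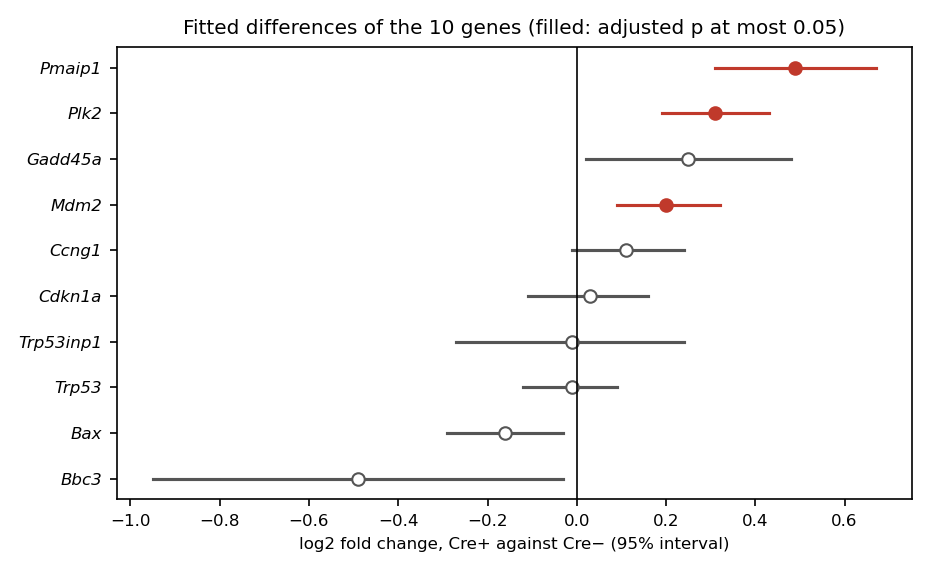
Log2 fold change of each of the 10 genes, Cre+ against Cre-, from edgeR's quasi-likelihood fit, with the 95% interval as a line, ordered by size. Filled red points are the 3 genes with an adjusted p of at most 0.05 (Pmaip1 0.49, Plk2 0.31 and Mdm2 0.20). The intervals of Trp53, Cdkn1a, Trp53inp1 and Ccng1 span 0, and those of Bax and Bbc3 lie below 0 without passing the test after adjustment.

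Counted over the 10 genes, 3 were called higher and 0 lower, where 2.50% of all 11429 tested genes were called higher, 2.56% lower and 5.07% in either direction. The 10 genes were chosen with earlier results of these data known, so this comparison describes them and is no independent test. By level in Cre- cultures, Plk2 was at percentile 97.3 of the tested genes, Mdm2 at 89.6 and Pmaip1 at 51.2. The same 3 genes were called by limma's voomWithQualityWeights, by limma voom and by DESeq2. At an unadjusted p under 0.05 there were 6 of the 10, of which 4 were higher (Pmaip1, Plk2, Mdm2 and Gadd45a) and 2 lower (Bax and Bbc3), where all genes gave 19.1%, with 9.69% higher and 9.46% lower. The groups did not overlap for 5 of the 10 genes, of which 4 were higher, where 24.0% of all tested genes did not overlap, 12.3% apart and higher and 11.7% apart and lower. The exact 2-sided permutation p of a single gene whose groups do not overlap is 0.1, the smallest that 3 cultures against 3 can give. The median log2 fold change of the 10 genes was 0.07, beside 0.00 for all genes tested, so the middle of the list stayed close to 0 while its ends reached from -0.49 to 0.49.

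A summed expression of the 10 genes was dominated by 1 of them. The sum was 891, 954 and 903 CPM in Cre- and 1045, 1004 and 1001 CPM in Cre+ replicates. Its means were 916 ± 33.4 and 1017 ± 24.3 CPM (SD, n = 3 each). Plk2 gave 83.8% of the difference of 101 CPM, Mdm2 gave 15.4%, Pmaip1 5.79% and Cdkn1a 2.01%, and Bax took away 13.9%.

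Levels of different genes can be compared only per length, and for this the counts were converted to TPM (length-scaled counts relative to their sum in the library) with the deposited exonic length. In Cre- cultures Bax was the most abundant at 191 ± 9.38 TPM and Plk2 next at 177 ± 15.7 TPM (SD, n = 3 each), with overlapping ranges. In Cre+ cultures Plk2, at 228 ± 16.1 TPM, was apart from Bax at 178 ± 9.53 TPM, so the order of the top 2 was the other way round. Cdkn1a came next in both groups, at 66.1 ± 0.258 and 69.9 ± 7.00 TPM. Trp53 (55.2 ± 2.29 TPM) and Ccng1 (52.6 ± 3.86 TPM) overlapped in Cre- cultures, with Mdm2 apart below them at 45.6 ± 3.11 TPM. In Cre+ cultures the levels of Ccng1, Trp53 and Mdm2, at 59.0, 56.8 and 54.5 TPM, overlapped between neighbours. Gadd45a and Pmaip1 changed places, from 13.4 to 13.6 and 11.2 to 12.8 TPM in Cre- cultures, where they were apart, to 15.2 to 18.8 and 17.0 to 18.0 TPM in Cre+ cultures, where they overlapped. Trp53inp1 (4.19 and 4.29 TPM) and Bbc3 (2.66 and 1.97 TPM) were the lowest in both groups. 

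Ratios of levels within a library do not depend on the scaling between libraries. These 2 pairs were chosen after their values were seen. The ratio of Pmaip1 to Bbc3, 2 BH3-only genes, was 5.59, 4.77 and 3.58 in Cre- and 9.24, 7.76 and 9.76 in Cre+ replicates on the TPM scale, so the groups were apart, at 4.65 ± 1.01 and 8.92 ± 1.04 (SD, n = 3 each). Since Pmaip1 alone was apart and higher and Bbc3 alone apart and lower, this ratio had to be apart and adds no separate evidence. The ratio of Mdm2 to Trp53 was 0.823, 0.850 and 0.807 in Cre- and 0.940, 0.908 and 1.03 in Cre+ replicates, again apart, at 0.827 ± 0.0219 and 0.960 ± 0.0652 (SD, n = 3 each). Mdm2 alone was apart and higher and no difference in Trp53 was detected, so this ratio largely restates Mdm2 and adds no separate evidence. 

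**Figure D3:**
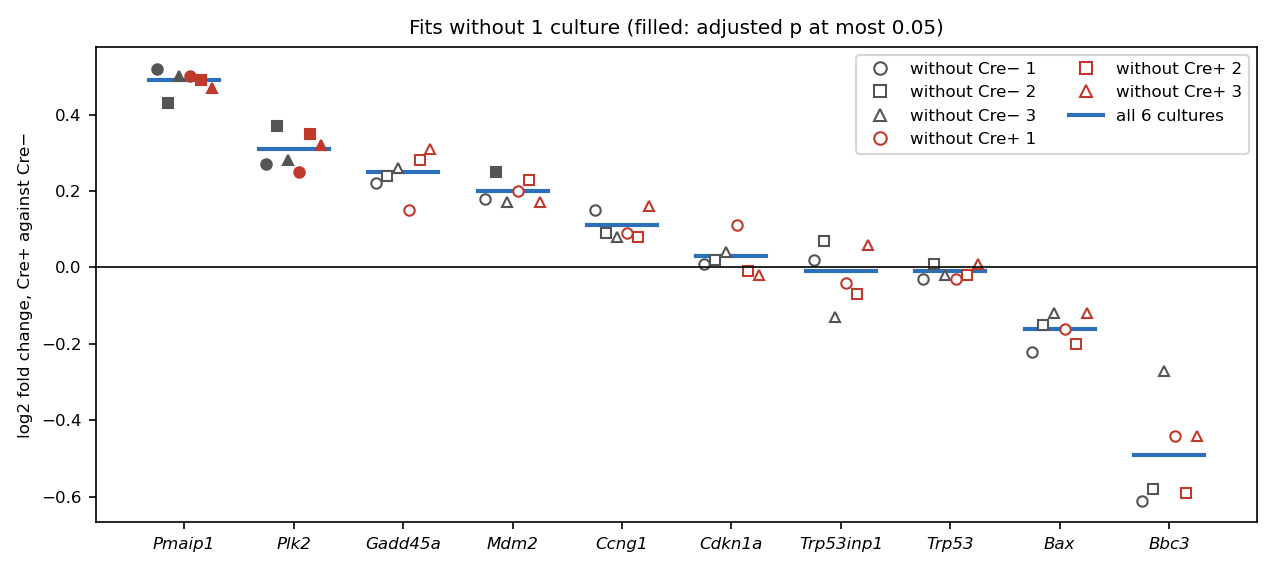
Log2 fold change (Cre+ against Cre-) of each of the 10 genes when 1 culture at a time was left out, with the fit on all 6 cultures as a blue line. Symbols give the culture left out, and filled symbols an adjusted p of at most 0.05. Pmaip1 and Plk2 were called in 6 of 6 such fits and Mdm2 in 1 of 6, while Cdkn1a, Trp53inp1 and Trp53 changed sign.

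Other p53 targets did not pass the test. Of 33 further targets, 27 were above the expression filter, and 0 were called by edgeR, by voomWithQualityWeights or by voom. DESeq2 called 2, Zmat3 and Sesn1, where it called 886 of all 11429 tested genes. At an unadjusted p under 0.05 there were 3 higher and 3 lower, where 9.69% of all genes were higher and 9.46% lower at that threshold, a share that applies to each list below. The median log2 fold change was -0.02, beside 0.00 for all genes. Sesn1, which encodes a sensor of amino acids and oxidative stress, had means of 44.1 ± 1.20 and 50.3 ± 1.20 CPM (SD, n = 3 each, Cre- first), at a log2 fold change of 0.19 (adjusted p = 0.0730). Tigar, a regulator of glycolysis, was at 13.1 ± 0.832 and 15.8 ± 0.373 CPM (SD, n = 3 each), at a log2 fold change of 0.27 (adjusted p = 0.104). Groups were apart for 6 of the 27, with 4 higher, where all tested genes gave 24.0% and 12.3%. Ddit4, Eda2r, Gls2, Ptprv, Trp53cor1 and Zfp365 were below the filter.

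Genes of damage signalling, DNA repair and the regulation of p53 gave no call by edgeR's quasi-likelihood test. Of 35 listed, 33 were tested and 0 were called by edgeR or voom, with 2 higher and 3 lower at an unadjusted p under 0.05 and a median log2 fold change of 0.02. Wrap53, which lies head to head with Trp53 on the minus strand with 103 bases between them, had means of 10.6 ± 1.21 and 7.97 ± 0.294 CPM (SD, n = 3 each), a log2 fold change of -0.42 that just missed the threshold (adjusted p = 0.0505) and was called by voomWithQualityWeights and DESeq2. Wrap53 encodes a protein of telomerase and Cajal bodies. Cdkn2a, whose p19ARF product restrains MDM2, was at 8.96 ± 0.887 and 6.59 ± 1.82 CPM (SD, n = 3 each), a log2 fold change of -0.45 (adjusted p = 0.167) that was -0.23 without Cre+ replicate 1 (adjusted p = 0.435), the lowest culture.

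The wider apoptosis machinery did not pass the test either. Of 26 genes of the BCL2 family and the caspases, 24 were tested, 0 were called by edgeR, voomWithQualityWeights or voom, 2 were higher and 0 lower at an unadjusted p under 0.05, and the median log2 fold change was 0.05. The 2 were Cycs, cytochrome c (55.1 to 63.1 CPM, log2 fold change 0.20, adjusted p = 0.0574), and Bcl2l1, which encodes the anti-apoptotic BCL-XL (271 to 302 CPM, log2 fold change 0.16, adjusted p = 0.0715). DESeq2 called both. Relatives of the 10 genes, such as the other GADD45 and CIP/KIP members, had 7 of 10 tested, 0 called by any of the 4 tools, 2 lower at an unadjusted p under 0.05 and a median of -0.13. The lowest p-values were those of Gadd45g (103 to 93.5 CPM, log2 fold change -0.13, adjusted p = 0.140) and Trp53inp2 (49.2 to 44.4 CPM, -0.15, adjusted p = 0.227), so Gadd45a and Gadd45g had estimates of opposite sign, neither called.

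The integrated stress response, a pathway through ATF4 that can also induce Pmaip1, had 9 of 10 genes tested and 0 called by edgeR, voomWithQualityWeights or voom. At an unadjusted p under 0.05 there were 2 higher and 2 lower, and the median log2 fold change was -0.04. Psat1, an enzyme of serine synthesis, went from 66.2 to 57.3 CPM (log2 fold change -0.21, adjusted p = 0.0688), and Atf5 from 8.01 to 5.94 CPM (-0.43, adjusted p = 0.0803). DESeq2 called these 2 genes, where it called 886 of all 11429 tested genes.

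Cell cycle genes, which p53 and p21 hold down, included 2 that were higher in Cre+ cultures. Of 31 listed, 21 were tested, and 2 (9.52%) were called higher and 0 lower, where 2.50% of all genes were called higher. Top2a, topoisomerase IIα, was at 3.15, 3.67 and 2.50 CPM in Cre- and at 5.31, 5.60 and 5.28 CPM in Cre+ replicates, with the groups well apart and a log2 fold change of 0.79 (SE 0.16, adjusted p = 0.00956). Rrm2, the S-phase subunit of ribonucleotide reductase, was at 2.58, 3.55 and 2.74 CPM in Cre- and at 4.35, 4.16 and 6.86 CPM in Cre+ replicates, with a log2 fold change of 0.79 (SE 0.20, adjusted p = 0.0345) that was 0.53 and no longer called without Cre+ replicate 3 (adjusted p = 0.189). Rrm2 also lost its call without Cre- replicate 1 or 3 and by voomWithQualityWeights, whereas Top2a kept its call in all 17 alternative fits. At an unadjusted p under 0.05, 5 of the 21 were higher and 0 lower, where all genes gave 9.69% and 9.46%, and the median log2 fold change was 0.05. Levels ranged widely, from Mcm6, a subunit of the replicative helicase, at 36.1 to 43.2 CPM over the 6 cultures, to the 10 genes, among them Plk1, Ccna2 and Cdc20, that were at or below 1 CPM in too many libraries to be tested.

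**Figure D4:**
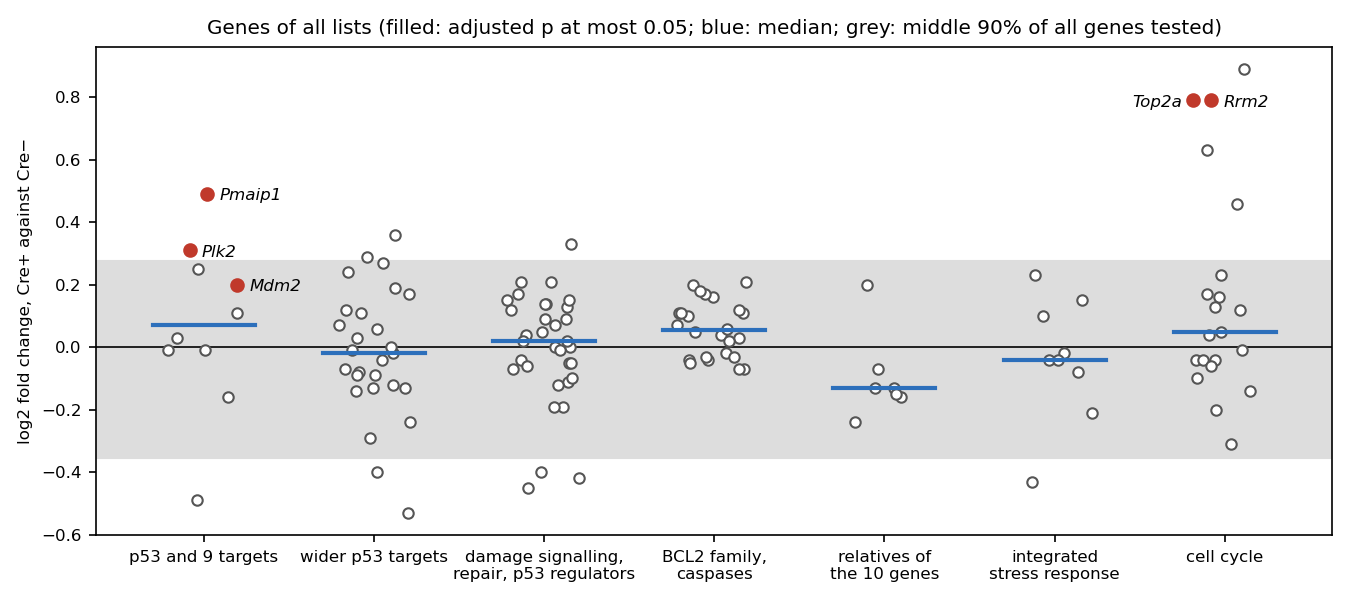
Log2 fold change (Cre+ against Cre-) of every tested gene in 7 lists, 1 point per gene, with the median of each list as a blue line and the middle 90% of all 11429 tested genes (-0.35 to 0.28) in grey. Filled red points have an adjusted p of at most 0.05 and are named: Pmaip1, Plk2 and Mdm2 among p53 and its 9 targets, and Top2a and Rrm2 among the cell cycle genes. The medians lie between -0.13 and 0.07.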

How the data were processed

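RNA-seq libraries of 6 microglia cultures (3 Cre-, 3 Cre+) were analysed from the gene counts, which the authors deposited as whole numbers of reads per Ensembl gene, without normalization or filter. The submitters' processing notes name STAR 2.7.9a, featureCounts 2.0.3 and the GRCm38 build. The authors also deposited CPM, which are the counts scaled to the library total, and FPKM, which are also scaled to gene length. Neither entered a result here. The 10 genes and all gene lists were chosen with earlier results of these data known. The genes named outside the 10 are, in each list, those called or, where fewer than 2 were called, the 2 with the smallest p-values. Zmat3, Mcm6, Plk1, Ccna2, Cdc20, Itgam, Flt1, Kdr, Cldn5 and P2ry12 were named after their values were seen.

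The 356 ribosomal RNA genes (biotypes from GENCODE M21, 55227 of 55487 identifiers matched) were left out. The 11429 other genes exceeding 1 CPM in 4 or more libraries entered the quasi-likelihood test of edgeR 4.0.16 (R 4.3.3, TMM factors 0.986 to 1.01, no covariates), with Benjamini-Hochberg adjustment over all of them and a 0.05 threshold. SE was computed as the size of the fitted log2 change over the root of its F statistic, and 95% intervals use the t quantile at the fitted degrees of freedom. Levels of marker lists and of genes below the filter use library totals. Library totals ran from 87545868 to 110909129 counts, and cultures of a group varied by 10% at the common dispersion of 0.01002. No 2 libraries agreed within counting noise (chi-square per degree of freedom at least 15.0). The fit was tested on simulated data with known changes. Alternatives were DESeq2 1.42.0, limma 3.58.1 (voomWithQualityWeights and voom), other normalizations, filters and thresholds, a replicate block and leaving out each culture. Overlapping exons came from GENCODE M21 and similar transcripts from blastn 2.17.0. Promoters are RefSeq windows on GRCm38.p6. Groups of 3 are too small for a test of single outlying cultures.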

Additional observations from a re-analysis of the deposited data

How the results depend on the processing

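The calls of Pmaip1 and Plk2 held in all 17 alternative fits, and the call of Mdm2 in 11. With the replicate number as a block, 2 of the 10 genes were called and Mdm2 was not (0.20, adjusted p = 0.0858). Cultures with the same number did not deviate together (r = 0.014, -0.021 and -0.044), so these values show no pairing by number. With 3 cultures per group, they cannot tell whether any cultures shared a litter. The block left the count over all genes at 430. Among the 10 genes, no other call changed with the block. Leaving out 1 culture gave 317 to 448 called genes in all against 579, 2 to 3 of the 10 genes, 1 to 3 cell cycle genes, 0 to 1 damage and p53 regulators (1 without Cre- replicate 1), and 0 to 1 integrated stress response genes (1 without Cre+ replicate 2). Over all genes, the counts were lowest at 317 without Cre+ replicate 3, 339 without Cre- replicate 3 and 376 without Cre+ replicate 2.

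With no filter on low counts, the median of all genes moved to -0.20 on the log2 scale, all genes gave 1528 calls, and the lists gave 3 wider p53 targets, 3 damage and p53 regulators, 2 BCL2 family and caspase genes, 4 cell cycle genes and 1 integrated stress response gene. DESeq2 called 886 genes in all, 2 wider targets, 1 damage gene, 2 BCL2 family and caspase genes and 2 integrated stress response genes, and a threshold of 0.1 gave 935, 1, 1, 2 and 2. The damage list also had 1 call with DESeq2 size factors, with the filter at 3 libraries, without ribosomal protein genes and by voomWithQualityWeights. The BCL2 list had 1 call with library totals and 2 with filterByExpr, and voomWithQualityWeights called 1 cell cycle gene. The cause of these shifts was not tested. 

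Estimates near 0 changed sign. Trp53 was at 0.07 with no filter, 0.03 with filterByExpr and 0.01 without Cre- replicate 2 or Cre+ replicate 3 (-0.03 to 0.01 over the 6 cultures left out). Cdkn1a was at -0.01 and -0.02 without Cre+ replicate 2 and 3 (-0.02 to 0.11). Trp53inp1 was at 0.06 with no filter, 0.03 with filterByExpr, 0.02 and 0.07 without Cre- replicate 1 and 2, and 0.06 without Cre+ replicate 3 (-0.13 to 0.07). The lowest counts among the 10 genes were those of Bbc3 (168 to 290), whose 95% interval was also the widest of the 10.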

Other observations

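Of the 21 tested cell cycle genes, 5 had groups that did not overlap, all higher in Cre+ cultures, where 12.3% of all tested genes were apart and higher. Beside Top2a and Rrm2 these were 3 genes that edgeR's quasi-likelihood test did not call. Of the 10 cell cycle genes below the expression filter, Plk1, Ccna2, Cdc6 and Ccne2 were apart and higher. Their counts were low, such as 15 to 61 for Ccna2 and 22 to 141 for Plk1. The share of all genes below the filter that were apart was not computed, so these genes have no background to be set against. Mybl2 and Cdc25c, also below the filter, had lower means in Cre+ libraries, with overlapping groups. Of the 21 tested genes, 12 had estimates above 0 and 9 below. The genes named here were chosen after their values were seen. Ccnb2, a mitotic cyclin, had means of 0.942 ± 0.321 and 1.75 ± 0.187 CPM (SD, n = 3 each, Cre- first, log2 fold change 0.89, adjusted p = 0.0581). Mki67, the proliferation antigen, was at 0.870 ± 0.285 and 1.34 ± 0.113 CPM (0.63, adjusted p = 0.187), and Birc5, survivin, at 1.42 ± 0.214 and 1.95 ± 0.179 CPM (0.46, adjusted p = 0.241).

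Among the wider p53 targets, Zmat3, an RNA-binding protein, was at 10.7, 10.3 and 10.9 CPM in Cre- replicates and at 12.6 to 13.3 CPM in the 3 Cre+ cultures (log2 fold change 0.29, adjusted p = 0.106). Cop1, a ubiquitin ligase that acts on p53, was at 11.1 ± 0.839 and 9.12 ± 0.606 CPM (-0.29, adjusted p = 0.157). These were also chosen after their values were seen.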
